A study of Homo sapiens with 12 samples.

Results

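TIE1, CCM2L and the receptor, ligand and adaptor genes around them were followed in RNA sequencing of kidney cancer cells with and without a short hairpin RNA (shRNA) against BMAL1. The set holds 9 of the 38021 gene names in the deposited table: TIE1, CCM2L, TEK, ANGPT1, KDR, FLT1, FLT4, HEG1 and KRIT1. The set was chosen by the changes of TIE1 and CCM2L with the shRNA against BMAL1, whose counts were much lower there, so for these 2 genes every comparison is given as a description, without a test. The other 7 were taken for their part in the same signalling pathways.

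TIE1 and TEK (also called TIE2) are receptor tyrosine kinases of endothelial cells, the lining of blood vessels. ANGPT1 is the activating ligand of TEK, and TIE1, which has no well-defined ligand of its own, pairs with TEK and modulates its signalling. KDR, FLT1 and FLT4 are the receptors for vascular endothelial growth factors (VEGFs). HEG1 is a transmembrane protein that anchors KRIT1, a scaffold protein of the cerebral cavernous malformation (CCM) complex with CCM2 and PDCD10. That complex restrains the kinase MAP3K3 and, through it, the transcription factors KLF2 and KLF4, and CCM2L is a paralogue of CCM2. BMAL1, listed in the table under its older symbol ARNTL, is a core transcription factor of the circadian clock.

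The 12 libraries fall into 4 groups of 3. The 786-O line is a clear cell renal cell carcinoma (ccRCC) line that lacks functional VHL, the ubiquitin ligase component that targets HIF-alpha proteins for destruction, and WT8 cells are 786-O cells to which wildtype VHL was restored. In both lines a lentiviral pLKO.1 construct delivered either a scrambled hairpin (shControl) or a hairpin against BMAL1 (shBMAL1), and all 4 groups had been through puromycin selection. The labels do not say which of the hairpins against BMAL1 was used, and whether WT8 is a single clone is not given in the sources used here. The replicates are labelled as biological, with nothing further on separate cultures, so p-values measure the spread between these samples.

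The targeted transcript was lower where the labels say so. ARNTL had 464, 378 and 423 counts in 786-O shControl, 142, 128 and 141 in 786-O shBMAL1. In WT8 it had 332, 355 and 309 counts with shControl and 56, 72 and 58 with shBMAL1. ARNTL fell in both lines, with a log2 change of -1.62 ± 0.13 (SE) in 786-O and -2.48 ± 0.14 in WT8 (edgeR, adjusted p = 4.90e-13 and 2.66e-17). VHL averaged 18.8 ± 1.58 CPM (counts scaled to a common library total, mean ± SD, n = 3) in 786-O shControl and 980.7 ± 56.5 CPM in WT8 shControl. VHL was also lower in WT8 shBMAL1, at 646.9 ± 15.1 CPM, a log2 change of -0.60 ± 0.05 (adjusted p = 6.67e-13), so the shRNA comparison within WT8 is also one between 2 levels of VHL transcript, and the part of this in the results below was not tested. Library totals ran from 33182005 to 36477484 counts, and 3 counts correspond to between 0.0822 and 0.0904 CPM.

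The sequences just upstream of the annotated starts of TIE1 and HEG1 are shown first, since TIE1 was lower and HEG1 higher with shBMAL1 and their promoters differ in base composition. Both are 250 bases from RefSeq on GRCh38.p14, given 5′ to 3′ on the strand of the gene. The first is chr1:43300732-43300981 on the plus strand and the second chr3:125055998-125056247 on the minus strand. Capitals mark GGAA, the core letters bound by ETS factors, on either strand (GGAA or TTCC).
TIE1: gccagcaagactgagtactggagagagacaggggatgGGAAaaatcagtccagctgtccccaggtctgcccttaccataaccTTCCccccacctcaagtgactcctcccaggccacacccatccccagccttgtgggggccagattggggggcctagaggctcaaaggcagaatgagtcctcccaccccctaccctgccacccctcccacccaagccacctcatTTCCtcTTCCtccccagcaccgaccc
HEG1: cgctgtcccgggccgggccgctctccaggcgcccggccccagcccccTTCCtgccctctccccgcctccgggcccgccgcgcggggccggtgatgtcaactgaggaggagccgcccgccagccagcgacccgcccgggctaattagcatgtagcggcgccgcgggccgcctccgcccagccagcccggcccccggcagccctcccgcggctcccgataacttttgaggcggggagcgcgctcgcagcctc

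The TIE1 stretch was 61.6% G and C with 1 CpG and 4 GGAA matches, and the HEG1 stretch was 78.4% G and C with 33 CpG and 1 GGAA match. Over 35116 RefSeq promoters the median was 58.0% G and C, with a median of 11 CpG. The entries of TEK, which was not called with shBMAL1 in either line, had 5 and 1 CpG. Those of KRIT1, called in WT8 alone, had 31 and 22. Whether base composition goes with the change in transcript level was not tested. Motifs were searched on both strands from 250 bases before to 50 bases after each start. The canonical E-box CACGTG, the sequence bound by BMAL1 with its partner CLOCK, was in 7.26% of all these promoters, and the letters ACGTG and GCGTG, the core of hypoxia response elements, were in 21.4% and 36.5%. None of these 3 was in the TIE1 or HEG1 window. The looser E-box CANNTG, which includes every CACGTG, was in 68.7% of promoters, with 3 matches in the TIE1 window, at -200, -156 and 38 relative to the start, and 1 in the HEG1 window, at -154. GGAA was in 95.5% of promoters. The longer ETS sequence CGGAAG, which contains GGAA, was in 19.5% of promoters and in neither window. Promoters were matched for 6 of the 9 genes, and CCM2L, ANGPT1 and FLT4 had no entry. These matches describe the letters in a short window.

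TIE1 was the member with the widest range. Its gene lies on chromosome 1 from 43766653 to 43788779 on the plus strand (GENCODE version 44 on GRCh37, the build used for all gene positions below). In 786-O shControl the 3 libraries held 221, 218 and 193 counts, and in 786-O shBMAL1 they held 22, 13 and 13. In WT8 shControl they held 526, 531 and 527 counts, and in WT8 shBMAL1 they held 1, 5 and 2. No 2 of the 4 groups overlapped, and the order from high to low was WT8 shControl, 786-O shControl, 786-O shBMAL1 and WT8 shBMAL1. Of all genes tested, 50.9% in 786-O and 67.6% in WT8 had shBMAL1 and shControl groups that did not overlap. For TIE1 this separation belongs to the comparison by which the gene was chosen.

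As group levels, TIE1 averaged 6.06 ± 0.504 CPM in 786-O shControl and 0.460 ± 0.149 CPM in 786-O shBMAL1. The summed counts of the shBMAL1 libraries were 7.60% of those of the controls after scaling (95% exact interval 5.54 to 10.2%), or 13.2-fold lower. In WT8 the means were 14.7 ± 0.629 and 0.0713 ± 0.0557 CPM. There the shBMAL1 libraries kept 0.486% of the control level (95% exact interval 0.209 to 0.959%), or 206-fold lower with an interval from 104 to 478. All 3 WT8 shBMAL1 libraries were near the level of 3 counts, and these intervals cover counting error only. The fitted log2 changes were -3.71 ± 0.20 in 786-O and -7.62 ± 0.25 in WT8, and without WT8 shBMAL1 replicate 2, which held 5 of the 8 counts, the WT8 value was -8.39.

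CCM2L, on chromosome 20 from 30598241 to 30619983 on the plus strand, was also lower in both shBMAL1 groups, but with the larger ratio in the other line. Its libraries held 107, 77 and 72 counts in 786-O shControl against 7, 7 and 12 in 786-O shBMAL1. They held 139, 161 and 145 counts in WT8 shControl against 63, 49 and 43 in WT8 shBMAL1. The groups of each line did not overlap, which was so for 50.9% of all genes in 786-O and 67.6% in WT8. The shBMAL1 libraries of 786-O were at 10.2% of control (95% exact interval 6.51 to 15.2%), with means of 2.46 ± 0.581 and 0.249 ± 0.0828 CPM, and those of WT8 at 33.5% (27.7 to 40.3%), with means of 4.13 ± 0.475 and 1.38 ± 0.268 CPM. The fitted log2 changes were -3.28 ± 0.30 and -1.58 ± 0.22. As a description, the change in WT8 minus that in 786-O was -3.91 ± 0.46 for TIE1 and 1.70 ± 0.39 for CCM2L. An unnamed long noncoding RNA lies over most of CCM2L on the opposite strand, and whether strand was used in counting is not given in the sources used here.

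**Figure D1:**
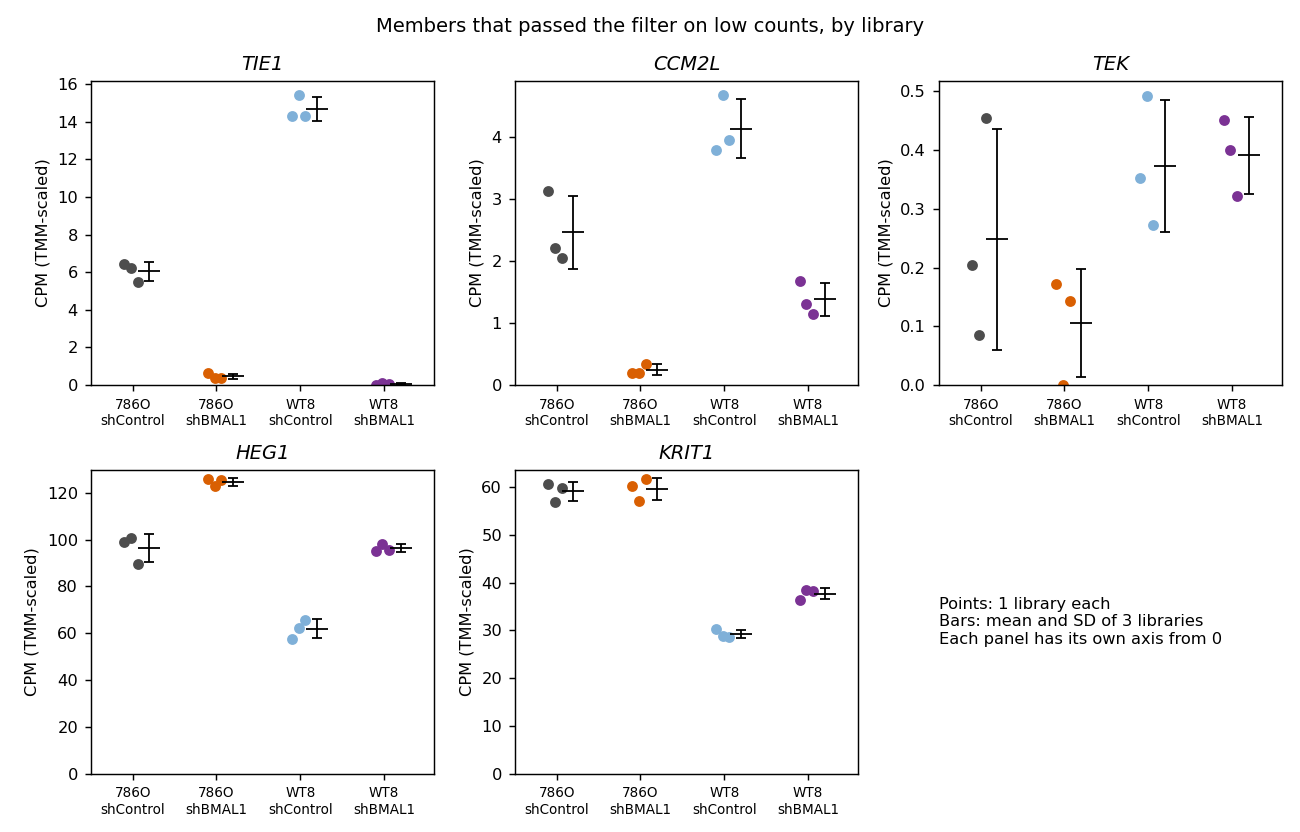
CPM after TMM scaling of the 5 members that passed the filter on low counts, in 4 groups of 3 libraries. Points are libraries, bars the mean and SD, and each panel has its own axis from 0. TIE1 and CCM2L are lower in both shBMAL1 groups, TEK stays under 0.5 CPM, and HEG1 is higher with shBMAL1 in both lines.

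Between the lines under shControl, TIE1 and CCM2L were both higher in WT8. The log2 difference of WT8 against 786-O was 1.28 ± 0.13 for TIE1 (2.42-fold) and 0.75 ± 0.21 for CCM2L (1.68-fold). The groups did not overlap for either gene. The same control libraries enter the comparison by which the 2 genes were chosen, so these values carry no test. Across all genes tested, 79.5% passed the threshold of an adjusted p under 0.1 between the lines under shControl (39.3% higher in WT8 and 40.2% lower), and 77.5% had groups that did not overlap. With shBMAL1 the order of TIE1 turned, with a log2 difference of -2.63 ± 0.46 for WT8 against 786-O, while that of CCM2L widened to 2.45 ± 0.32, both as descriptions. Over all genes 71.0% had groups that did not overlap between the lines with shBMAL1.

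HEG1 and KRIT1 were the 2 members far above the limit of detection in every library. Of the 9 members, 5 passed the filter on low counts. Of the 3 among these that the choice did not rest on, TEK, HEG1 and KRIT1, 1 was called with shBMAL1 in 786-O, where 48.9% of all genes tested were called (24.5% higher and 24.4% lower), and 2 in WT8, where 69.8% were called (32.9% higher and 36.9% lower). In the interaction 2 of the 3 were called, both with a positive sign, beside 56.0% of all genes (27.4% positive and 28.5% negative).

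HEG1, on chromosome 3 from 124684554 to 124774841 on the minus strand, held 3399, 3523 and 3152 counts in 786-O shControl and 4387, 4269 and 4365 in 786-O shBMAL1. In WT8 it held 2121, 2150 and 2417 counts with shControl and 3578, 3675 and 3566 with shBMAL1. The shBMAL1 libraries lay above the controls in both lines without overlap, which was so in either direction for 50.9% of all genes in 786-O and 67.6% in WT8. HEG1 rose from 96.5 ± 6.01 to 124.7 ± 1.65 CPM in 786-O, a log2 change of 0.37 ± 0.05 (adjusted p = 2.36e-07), and from 61.9 ± 4.05 to 96.3 ± 1.73 CPM in WT8, a log2 change of 0.64 ± 0.05 (adjusted p = 4.41e-13). The rise was larger in WT8 by 0.27 ± 0.07 on the log2 scale (adjusted p = 0.00254 for the interaction). HEG1 was lower in WT8 than in 786-O with either shRNA, by log2 values of -0.64 ± 0.05 with shControl and -0.37 ± 0.05 with shBMAL1, where 73.0% of all genes were called between the lines (36.0% higher in WT8 and 37.0% lower).

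KRIT1, on chromosome 7 from 91826812 to 91875480 on the minus strand, changed in 1 of the lines. It held 2074, 1989 and 2105 counts in 786-O shControl and 2095, 1979 and 2143 in 786-O shBMAL1, which overlap. The log2 change there was 0.01 ± 0.06 (adjusted p = 0.896). In WT8 it held 1113, 995 and 1050 counts with shControl and 1367, 1441 and 1427 with shBMAL1, a rise of 0.37 ± 0.06 (adjusted p = 1.88e-06). The difference between the lines was 0.36 ± 0.08 (adjusted p = 4.78e-04). Under shControl KRIT1 was 2.02-fold lower in WT8 (log2 -1.02 ± 0.06, adjusted p = 1.69e-17), at 29.2 ± 0.909 CPM against 59.1 ± 1.94 CPM. Protein-coding gene models without a name overlap KRIT1 on its own strand, so reads of these could not be told apart from its own.

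TEK, the partner of TIE1, was close to the limit of detection. Its libraries held 7, 3 and 16 counts in 786-O shControl, and 6, 0 and 5 in 786-O shBMAL1. The WT8 libraries held 13, 17 and 10 counts with shControl and 17, 15 and 12 with shBMAL1. It passed the filter on low counts through the WT8 libraries. In 786-O its log2 change with the shRNA against BMAL1 was -1.21 ± 0.71 (adjusted p = 0.173), and in WT8 it was 0.08 ± 0.54 (adjusted p = 0.917), and the groups overlapped in both lines. Single libraries decided the 786-O value, which ran from -1.75 to -0.45 when each library was left out in turn. It was -0.45 (adjusted p = 0.730) without 786-O shControl replicate 3, which had 16 counts, -0.65 (adjusted p = 0.516) without 786-O shBMAL1 replicate 2, which had 0, and -1.62 (adjusted p = 0.0824, past the threshold) without 786-O shControl replicate 2, which had 3. Between the lines the log2 difference of WT8 against 786-O was 1.86 ± 0.66 with shBMAL1 and 0.57 ± 0.58 with shControl, as descriptions, since the WT8 libraries let the gene pass the filter. The latter ran from 0.16 without 786-O shControl replicate 2 to 1.34 without replicate 3 of the same group.

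The ligand and the VEGF receptors were at or near 0. ANGPT1 held 4, 4 and 3 counts in 786-O shControl, 0, 2 and 0 in 786-O shBMAL1, and 0 in all 6 WT8 libraries. From 11 to 2 summed counts, the ratio in 786-O was 5.498-fold lower with a 95% exact interval from 1.20 to 51.0. KDR had 2 counts in 1 WT8 shBMAL1 library and FLT1 had 1 count in 1 786-O shControl library, with 0 in all others. FLT4 had at most 2 counts in any library. For these 3 receptors no fold change is given, since no library passed 3 counts, and differences between the groups were not detectable at this depth.

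Levels of different genes can be compared only per length of transcript. Divided by the summed exon length in kilobases, the level in 786-O shControl was 9.69 ± 0.604 CPM per kb for HEG1, 2.80 ± 0.0919 for KRIT1, 0.945 ± 0.224 for CCM2L, 0.903 ± 0.0751 for TIE1 and 0.0517 ± 0.0392 for TEK. CCM2L and TIE1 were neighbours in this order that did not differ beyond their spread. In WT8 shControl TIE1 stood at 2.19 ± 0.0938 CPM per kb, above CCM2L at 1.59 ± 0.183 and KRIT1 at 1.38 ± 0.0430, and the last 2 were within 2 SD of each other. The summed length takes in every annotated exon, 21.11 kb for KRIT1 and 6.705 kb for TIE1, and may exceed the transcripts present. Undivided, KRIT1 was at 29.2 CPM in WT8 shControl and TIE1 at 14.7 CPM, so the order of these genes rests on the divisor. In WT8 shBMAL1 the value for TIE1 was 0.0106 ± 0.00831 CPM per kb, below TEK at 0.0815 ± 0.0137.

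The partners of TIE1 and TEK were read from a list of 18 genes of angiopoietin signalling, of which 14 were tested. With shBMAL1, 3 of them were higher and 4 lower in 786-O (24.5% and 24.4% of all genes), and 3 were higher and 6 lower in WT8 (32.9% and 36.9%). The median log2 change was -0.04 in 786-O and -0.06 in WT8, beside 0.00 and -0.04 over all genes tested. PTPRB, the endothelial phosphatase that removes phosphate from TEK, differed most between the lines. It held 2142, 2311 and 2146 counts in 786-O shControl and 3, 3 and 2 in WT8 shControl, a ratio of 854-fold with a 95% exact interval from 433 to 1978. With shBMAL1 it fell in 786-O by 0.40 on the log2 scale (SE 0.08, adjusted p = 3.83e-05). In WT8 it rose from 8 to 41 summed counts, 4.93-fold (interval 2.28 to 12.2), and stayed under 1 CPM.

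The other angiopoietin genes did not move one way. FOXO1, a transcription factor that angiopoietin signalling inhibits through AKT, rose in 786-O from 2.55 ± 0.169 to 5.36 ± 0.557 CPM (log2 1.07 ± 0.15) and fell in WT8 from 7.80 ± 0.730 to 4.05 ± 0.188 CPM (log2 -0.95 ± 0.13). The test of this difference gave -2.02 ± 0.20 (adjusted p = 7.25e-11). PIK3CA, a catalytic subunit of PI3 kinase, fell in 786-O (log2 -0.31 ± 0.07), and ITGB1, an integrin subunit, rose there (log2 0.29 ± 0.04). The adaptor GRB7 rose in WT8 (log2 1.10 ± 0.23) and the adaptor SHC1 fell (log2 -0.68 ± 0.04). ANGPT2, the context-dependent antagonist of TEK, was at 0 in all 12 libraries. Between the lines under shControl, 3 genes of this list were higher in WT8 and 10 lower, beside 39.3% and 40.2% of all genes. GRB2, an adaptor, was among the former (log2 0.63 ± 0.05) and DOK1, a docking protein, among the latter (log2 -1.98 ± 0.09). PTPRB, also among the lower ones, passed the filter on low counts through the 786-O libraries, where it was high.

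The CCM and HEG1 list of 22 genes, of which 21 were tested, had 4 higher and 9 lower in 786-O with shBMAL1 (24.5% and 24.4% of all genes) and 12 higher and 7 lower in WT8 (32.9% and 36.9%). The lower ones in WT8 include RASIP1, which passed the filter on low counts through WT8 shControl, where it was high. The median log2 change of the list was -0.06 in 786-O and 0.14 in WT8, beside 0.00 and -0.04 over all genes. CCM2, the paralogue of CCM2L, rose in both lines. It went from 135.9 ± 3.36 to 156.2 ± 7.65 CPM in 786-O (log2 0.20 ± 0.05, adjusted p = 5.30e-04) and from 66.4 ± 1.57 to 116.1 ± 3.34 CPM in WT8 (log2 0.80 ± 0.05, adjusted p = 5.65e-17). CCM2L and CCM2 thus lay on opposite sides of 0 in both lines. ITGB1BP1, which binds KRIT1, rose in both lines too (log2 0.24 ± 0.05 and 0.49 ± 0.05).

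PDCD10, the third CCM protein, fell in 786-O (log2 -0.14 ± 0.06, adjusted p = 0.0522) and rose in WT8 (log2 0.41 ± 0.06, adjusted p = 8.78e-08). The kinases MAP3K3 and STK26 did likewise. MAP3K3 changed by -0.42 ± 0.08 in 786-O and by 0.73 ± 0.08 in WT8, and STK26, which binds PDCD10, by -0.38 ± 0.07 and 0.52 ± 0.07. For each of these 3 genes the difference between the lines passed the interaction test (adjusted p = 5.13e-07, 5.92e-11 and 1.32e-09 in this order). Of the 21 genes, 11 had a positive interaction that passed and 4 a negative one, beside 27.4% and 28.5% of all genes. The negative ones include RASIP1, which passed the filter on low counts through WT8 shControl, where it was high.

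KLF2 and KLF4, downstream of MAP3K3, fell in both lines. KLF2 held 253, 178 and 175 counts in 786-O shControl against 106, 146 and 115 in 786-O shBMAL1, and in WT8 it held 120, 94 and 136 counts with shControl against 93, 63 and 59 with shBMAL1. The groups of each line did not overlap in CPM, beside 50.9% of all genes in 786-O and 67.6% in WT8, although the WT8 ones nearly met. Its log2 changes were -0.72 ± 0.18 (adjusted p = 0.00121) and -0.76 ± 0.20 (adjusted p = 0.00125), and the difference between them was -0.03 ± 0.27 (adjusted p = 0.945). KLF4 fell by log2 values of -0.67 ± 0.14 in 786-O and -1.25 ± 0.16 in WT8, a difference of -0.58 ± 0.21 (adjusted p = 0.0201). ADAMTS5, a protease gene of the same list, rose in 786-O (log2 0.38 ± 0.09) and fell in WT8 (log2 -0.95 ± 0.10). CTNNB1, which encodes beta-catenin, was the other large rise in 786-O (log2 0.28 ± 0.04). Under shControl, where 39.3% of all genes were higher and 40.2% lower, 4 genes of the list were higher in WT8, ARHGAP29 (log2 0.21 ± 0.04) and STK24 (log2 0.11 ± 0.05) among them, and 16 were lower. RASIP1, also among the higher ones, passed the filter on low counts through WT8 shControl.

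The VEGF list of 22 genes, of which 21 were tested, had 10 higher and 3 lower in 786-O with shBMAL1 and 6 higher and 13 lower in WT8, beside 24.5% higher and 24.4% lower of all genes in 786-O and 32.9% and 36.9% in WT8. Its median log2 change was 0.16 in 786-O and -0.43 in WT8, beside 0.00 and -0.04 over all genes. Among the ligands, VEGFA went from 157.2 ± 4.26 to 175.7 ± 7.08 CPM in 786-O (log2 0.16 ± 0.05, adjusted p = 0.00537) and from 94.1 ± 4.25 to 31.3 ± 1.15 CPM in WT8 (log2 -1.59 ± 0.05, adjusted p = 8.45e-25). VEGFB rose by 0.26 ± 0.08 in 786-O and fell in WT8 (log2 -0.26 ± 0.09). VEGFC, a ligand of FLT4, rose in both lines, by log2 values of 0.32 ± 0.07 and 0.18 ± 0.08, and was 4.90-fold lower in WT8 than in 786-O under shControl. PGF, a ligand of FLT1, had 36 summed counts in the WT8 controls and 11 with shBMAL1 (log2 -1.73 ± 0.60, adjusted p = 0.0118), and -0.37 ± 0.43 in 786-O (adjusted p = 0.527). FIGF, which encodes VEGFD, had 1 count in all 12 libraries together.

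The neuropilins, co-receptors of the VEGF receptors, were well detected where the receptors themselves were not. NRP1 rose in 786-O from 193.4 ± 4.79 to 443.1 ± 13.8 CPM (log2 1.20 ± 0.04, adjusted p = 1.75e-22) and fell in WT8 from 187.6 ± 4.76 to 77.5 ± 1.59 CPM (log2 -1.28 ± 0.04, adjusted p = 4.73e-24). The interaction was -2.47 ± 0.06 (adjusted p = 1.38e-27). NRP2 fell in both lines (log2 -0.37 ± 0.05 and -1.69 ± 0.07) and was 21.97-fold lower in WT8 than in 786-O under shControl. SHB, an adaptor of KDR, rose in 786-O (log2 0.49 ± 0.05), and the kinase gene FYN fell in WT8 (log2 -2.69 ± 0.23). MAPKAPK2, a stress kinase, fell in both lines (log2 -0.27 ± 0.05 in 786-O and -0.36 ± 0.05 in WT8), and the adaptor NCK1 rose in WT8 (log2 0.25 ± 0.09). Under shControl 6 genes of the list were higher in WT8 and 14 lower, beside 39.3% and 40.2% of all genes. SRC, a kinase that VEGF receptors activate, was among the higher ones (log2 1.03 ± 0.05). With shBMAL1 4 were higher and 16 lower, beside 36.0% and 37.0% of all genes, and PTK2, which encodes focal adhesion kinase, was higher (log2 0.65 ± 0.04). DLL4, among the higher ones, and SH2D2A, among the lower, passed the filter on low counts through the line where each was high.

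**Figure D2:**
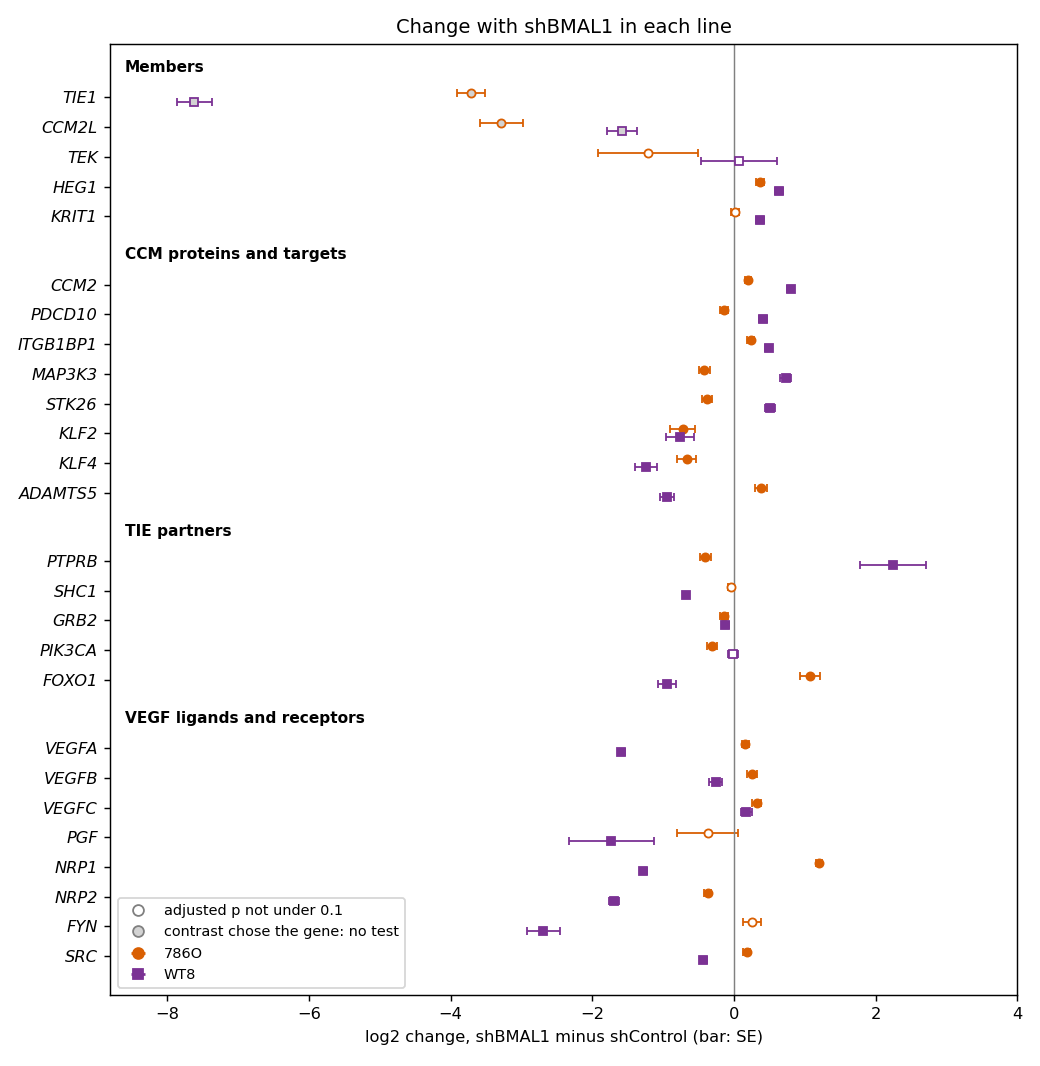
log2 change with shBMAL1 against shControl in 786-O (circles) and WT8 (squares), with SE, for members and genes of the 3 pathway lists. Open symbols did not pass an adjusted p of 0.1, and the grey symbols of TIE1 and CCM2L carry no test. HEG1 and CCM2 are above 0 in both lines, KLF2 and KLF4 below 0 in both, and NRP1 and FOXO1 lie on opposite sides.

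Most markers of endothelial cells were at trace levels in these kidney cancer cells, but the summed level of the list was lower with shBMAL1 in both lines, as TIE1 was. Between the lines with shBMAL1 the sum was higher in WT8, where TIE1 was lower. Of 26 endothelial markers, EMCN, CLEC14A, MMRN1 and PROX1 had no count in any library, and 12 to 14 of the 26 had no more than 3 counts in any library of a given group, those at 0 included. The summed level of the list ran from 33.04 to 39.15 CPM in 786-O shControl, and from 22.2 to 23.5 CPM in 786-O shBMAL1. For WT8 it ran from 74.0 to 85.3 CPM with shControl and from 47.3 to 48.9 CPM with shBMAL1. The part of this in the TIE1 and CCM2L values was not tested. In bulk RNA fewer cells of a type and less RNA per cell cannot be told apart.

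EGFL7, a secreted endothelial factor, and S1PR1, a sphingosine phosphate receptor, made up most of that sum. EGFL7 fell from 20.4 ± 2.32 to 15.2 ± 0.365 CPM in 786-O (log2 -0.43 ± 0.08) and from 49.9 ± 3.81 to 14.8 ± 0.981 CPM in WT8 (log2 -1.76 ± 0.08). S1PR1 fell in 786-O (log2 -0.79 ± 0.13) and rose in WT8 (log2 0.41 ± 0.08). ICAM2, an adhesion molecule, fell in 786-O (log2 -1.73 ± 0.18) and had a log2 change of -0.37 ± 0.22 in WT8 (adjusted p = 0.149). ECSCR, an endothelial surface protein, held 45, 32 and 59 counts in WT8 shControl and 0 in all 3 WT8 shBMAL1 libraries, at least 15.7-fold lower against 3 counts a library. The 2 markers called higher in 786-O were ESAM, a junctional adhesion molecule (log2 0.66 ± 0.28, adjusted p = 0.0577), and PECAM1, an endothelial adhesion molecule. PECAM1 went from 0 in all 3 controls to 2, 1 and 5 counts (adjusted p = 0.0217). Against 3 counts a library its bound was 0.889-fold, so no size of rise can be stated at this depth. Of the 9 endothelial markers tested, 2 were higher and 5 lower in 786-O with shBMAL1 (24.5% and 24.4% of all genes), and 1 was higher and 4 lower in WT8 (32.9% and 36.9% of all genes). Among the lower ones in WT8, PECAM1, MMRN2 and ECSCR passed the filter on low counts through WT8 shControl, where they were high. Their fall in WT8 is therefore a description, and the count there cannot be set against the share of all genes.

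Part of the markers of the labelled origin, the kidney, were well detected. Of 18 kidney tubule markers, 10 to 12 averaged 50 counts or more in a given group, while LRP2 had at most 3 summed counts in any group. Between the lines under shControl 8 of the 15 tested were higher in WT8 and 7 lower, beside 39.3% and 40.2% of all genes. KRT19 and VCAM1 were 438-fold and 541-fold lower there, and PAX8 was 4.26-fold higher. EPCAM, among the lower ones, and PROM1, among the higher, passed the filter on low counts through the line where each was high. The count of kidney markers between the lines is therefore a description and cannot be set against the share of all genes. Kidney tubule markers, led by KRT8 and PAX8, summed to between 1775 and 2707 CPM per library, and of 15 tested with shBMAL1, 6 were higher and 5 lower in 786-O (24.5% and 24.4% of all genes) and 12 were lower in WT8 (36.9%). Blood cell markers, led by the lysosomal CD68, summed to between 28.7 and 65.9 CPM, while CD3E, CD48 and MS4A1 were at 0 in every group. Of the 6 blood cell markers tested, 2 were higher and 4 lower in 786-O, and 1 was higher and 4 lower in WT8, beside the same shares of all genes and 32.9% higher in WT8.

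**Figure D3:**
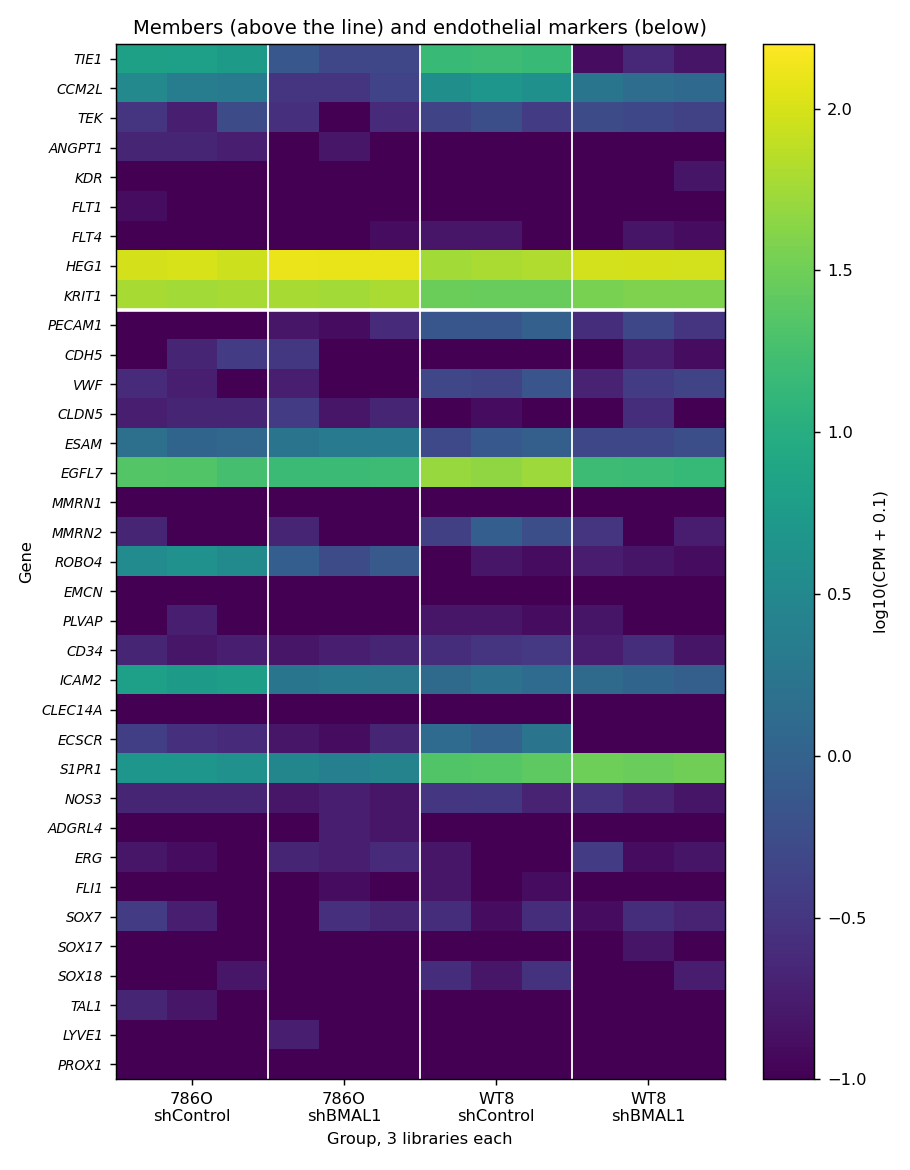
Level of the 9 members and of 26 endothelial markers in the 12 libraries, as log10(CPM + 0.1), where the darkest colour is 0 CPM. HEG1, KRIT1 and EGFL7 are bright in every group, and S1PR1 is brighter in WT8 than in 786-O. Most other endothelial markers are dark throughout, and the TIE1 row is brightest in WT8 shControl and dark in WT8 shBMAL1.

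The genes described here that start within 100 kb of the TIE1 start, EBNA1BP2, CDC20, ELOVL1 and MED8, had positive log2 changes with shBMAL1 in both lines. In 786-O EBNA1BP2 rose by 0.10 ± 0.05 (adjusted p = 0.0793) and ELOVL1, a fatty acid elongase gene, by 0.14 ± 0.05 (adjusted p = 0.0106). There CDC20 had 0.07 ± 0.04 (adjusted p = 0.188) and MED8 0.03 ± 0.06 (adjusted p = 0.686). In WT8 all 4 rose, by 0.31 ± 0.05 for EBNA1BP2, 0.36 ± 0.05 for ELOVL1, 0.37 ± 0.06 for MED8 and 1.82 ± 0.05 for CDC20, a cell cycle gene, where 32.9% of all genes were called higher.

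Within the same distance of the CCM2L start, PDRG1 had a log2 change of 0.04 ± 0.08 in 786-O (adjusted p = 0.752) and rose in WT8 (0.43 ± 0.07, adjusted p = 3.78e-06). TM9SF4 had -0.07 ± 0.05 in 786-O (adjusted p = 0.190) and fell in WT8 (-0.50 ± 0.05, adjusted p = 4.94e-12).

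**Figure D4:**
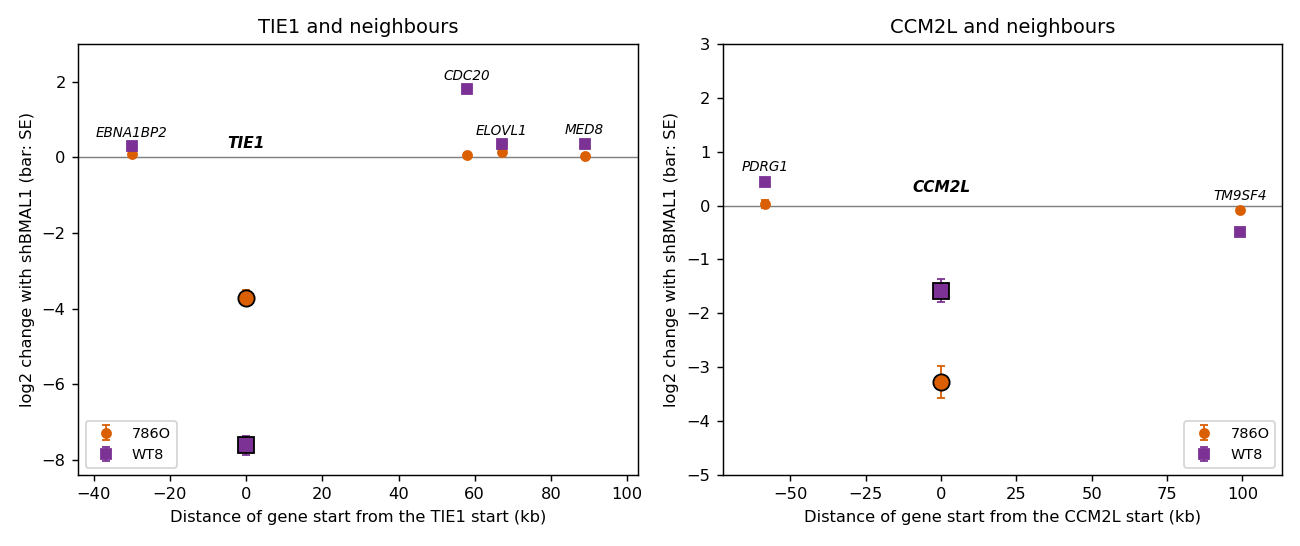
log2 change with shBMAL1, with SE, of the genes named in the text within 100 kb of the starts of TIE1 (left) and CCM2L (right) against distance in kb, for 786-O (circles) and WT8 (squares). The large outlined symbols at 0 kb are TIE1 and CCM2L. The 4 neighbours of TIE1 lie above 0 in both lines, and near CCM2L PDRG1 is above 0 and TM9SF4 below it in WT8.

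The genes most like TIE1 across the 12 libraries were sought among 12947 genes by the correlation of log2 CPM, as a description, since all points come from the same 4 groups. AKR1B1, which encodes aldose reductase, came first (Pearson r = 0.988), then RBM4B, SERINC1, TMEM231 and LOC105369566, all with r between 0.987 and 0.988. AKR1B1 averaged 3057 ± 41.3 CPM in 786-O shControl, and 1917 ± 12.8 in 786-O shBMAL1. In WT8 it averaged 3632 ± 101.5 CPM with shControl and 1540.4 ± 76.1 with shBMAL1, the same order of groups as TIE1 with a much smaller range. With Spearman correlation none of these 5 was among the top 5.

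The genes most like CCM2L were AARS (r = 0.987), ATP8B2, NR1D2, GPT2 and SARS (r = 0.978). AARS and SARS encode transfer RNA synthetases, GPT2 an amino acid transaminase and NR1D2 a nuclear receptor of the circadian clock. NR1D2 averaged 44.8 ± 2.02 CPM in 786-O shControl, and 13.1 ± 1.04 in 786-O shBMAL1. In WT8 the means were 49.2 ± 4.43 CPM with shControl and 32.1 ± 1.28 with shBMAL1. Among the members, the correlation over the 12 libraries was 0.63 between TIE1 and CCM2L, 0.83 between HEG1 and KRIT1, -0.65 between TIE1 and HEG1 and -0.85 between CCM2L and HEG1, given as descriptions.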

How the data were processed

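RNA was sequenced from 12 libraries in 4 groups of 3, by stranded mRNA libraries read as pairs on a BGI instrument. The deposited values are the authors' estimated counts of reads on each gene, without scaling between libraries. The study's methods name GRCh37, SeqMan NGen 17 and ArrayStar 17, whereas the submitters' processing notes name hg38, STAR and DESeq2, so the build behind the counts is uncertain. The annotation, the use of strand and the treatment of reads with several alignments are not given in the sources used here. The authors' values held 0.028 in place of 0 (47.0% of values), and 5.67% of the rest were not whole, so the count test, planned for plain counts, was run on estimated ones. The 0.028 values became 0, 98 lines with 45 repeated names (0.100% of reads) were summed by name, and values were rounded. Counts of 2 (14754) were more frequent than counts of 1 (11117), so both mates of a read pair were probably counted, and intervals and bounds may be too tight.

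All 12 libraries entered 1 model with a term for each group in edgeR 4.0.16, R 4.3.3 (TMM scaling, filterByExpr, robust quasi-likelihood F test), which left 16838 of 26925 genes with a count. Benjamini-Hochberg adjustment covered every tested gene, with a call at an adjusted p under 0.1. Every adjusted p is from this fit, except those given for TEK with a library left out, which are from the fit without that library. SE is the absolute log2 change over the root of its F statistic. CPM are TMM-scaled. The common biological coefficient of variation was 5.70%. Ratios of summed counts have 95% exact binomial intervals, for counting error only. Promoter sequences are RefSeq, GRCh38.p14, and positions GENCODE 44 on GRCh37. The script was tested on simulated data.

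Named genes were the 9 members, ARNTL, VHL and EPAS1 as checks, 13 ligands, receptors and CCM genes whatever their values, in each pathway list and comparison the 2 largest called rises and falls averaging 50 counts or more, the 5 genes most correlated with TIE1 and with CCM2L (log2 CPM, prior count 2) and neighbours within 100 kb. Some genes that these rules name are not reported here. Endothelial markers were named after their values were seen. CANNTG and GGAA were added to the motifs after the files were read. The members and lists were chosen with earlier results of these data known. Alternatives were another filter, other scaling, DESeq2 1.42.0, fits to the groups compared, a replicate block and leaving out each library.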

Additional observations from a re-analysis of the deposited data

Results flagged for a closer look

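Of 38 named genes tested in the interaction, apart from TIE1 and CCM2L, 27 changed differently with shBMAL1 in the 2 lines by edgeR's test of that difference (11 positive, 16 negative), and for 17 of them the 2 changes had opposite signs. Across all genes 56.0% passed that test, but the named genes include some picked for the largest changes, the interaction among them, so the 2 shares cannot be compared. Of the 17, GRB7, FYN, RAC1 and VHL had no called change in 786-O. Each value below is the log2 change in WT8 minus that in 786-O.

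Among the members these were HEG1 (0.27) and KRIT1 (0.36). In the angiopoietin list they were FOXO1 (-2.02), ITGB1 (-0.51), PTPRB (2.65), PIK3CA (0.29), GRB7 (1.26) and SHC1 (-0.63). In the VEGF list they were VEGFA (-1.75), VEGFB (-0.51), NRP1 (-2.47), NRP2 (-1.32), SHB (-1.09), FYN (-2.94), SRC (-0.61), PRKCA (0.37) and RAC1 (0.17). In the CCM list they were CCM2 (0.60), PDCD10 (0.55), MAP3K3 (1.15), STK26 (0.90), KLF4 (-0.58), ADAMTS5 (-1.33) and CTNNB1 (-0.16). The checks ARNTL (-0.86), VHL (-0.65) and EPAS1 (-1.44) also differed.

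EPAS1, which encodes HIF2-alpha, averaged 192.2 ± 4.31 CPM in 786-O shControl, and 182.0 ± 7.77 in 786-O shBMAL1. In WT8 it averaged 259.3 ± 10.1 CPM with shControl and 90.8 ± 1.79 with shBMAL1.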

How the results depend on the processing

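With no filter or a stricter one, DESeq2 size factors or library totals, the DESeq2 test, fits to the groups compared alone and a replicate block, the 5 members that could be fitted kept their direction and, where tested, their call (TEK did not pass the stricter filter), and the counts of list genes called stayed within 1.5 times those reported. Counts of called members ran from 1 to 2 in 786-O when single libraries were left out, with 2 (TEK added) without 786-O shControl replicate 2. For 2 uncalled results the sign turned without single libraries: TEK in WT8 (-0.03 without WT8 shBMAL1 replicate 1, -0.11 without WT8 shControl replicate 3, up to 0.32) and KRIT1 in 786-O (-0.0171 without 786-O shBMAL1 replicate 3, -0.0197 without 786-O shControl replicate 2, up to 0.0384). Of the 5 genes most like TIE1, 2 were shared with a prior count of 0.5 and 0 with Spearman correlation, and of those most like CCM2L 2 were shared with Spearman. The cause was not tested. Same-numbered libraries did not deviate together (r from -0.05 to 0.05 over 18 pairs), and the replicate block gave 8055 calls in place of 8237 in 786-O and 11622 in place of 11753 in WT8. Library totals in place of TMM moved the median of all genes between the lines by 0.12 under shControl and 0.11 under shBMAL1. Depth limits ANGPT1, KDR, FLT1, FLT4 and TEK, which had at most 17 counts in any library.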
